A study of Mus musculus with 18 samples.

Results

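The data cover the response of L929 cells, an established line of mouse fibroblasts, to AOA and aspartate given together, measured by RNA sequencing against Mock cells. Neither group received DNA. AOA (aminooxyacetic acid) blocks aminotransferases, the enzymes that move amino groups between amino acids and keto acids with the help of pyridoxal phosphate. The comparison asks what remained of the response to AOA, and what was new, once aspartate was supplied. Its members were chosen by their labels alone, and they are the 3 Mock and 3 AOA+Asp libraries out of 18 in the series. Each group held 3 cultures. Mock cells carry the treatment label DMSO, AOA was used at 0.5 mM with 1 h of pretreatment, and aspartate at 20 mM. Values of 3 further groups are used beside them, which received AOA alone, HT-DNA alone (herring testis DNA, 0.5 μg/ml for 6 h, which activates the DNA sensor cGAS) or HT-DNA with AOA and aspartate. The remaining group received HT-DNA with AOA, and its 3 libraries enter the statistical fit without being compared here. No group received aspartate alone, so an effect of aspartate by itself and its effect on AOA-treated cells cannot be told apart. Whether the cells without HT-DNA received transfection reagent, and when they were harvested, is not given in the sources used here.

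Aspartate is made from oxaloacetate by the aminotransferases Got1 and Got2, which also run the malate-aspartate shuttle that carries reducing equivalents into mitochondria. It feeds purine, pyrimidine, asparagine and arginine synthesis, and most cultured cells take it up poorly. Shortage of amino acids is known to raise the target genes of the transcription factor ATF4, and sterols are known to hold back the SREBP factors that switch on cholesterol synthesis.

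The 6 libraries held 20008877 to 22906074 estimated counts each, with 19730 to 20328 genes above 0. Levels are CPM, each gene's counts relative to the library's TMM-scaled total. Changes are log2 fold changes with their standard error (SE) from edgeR's quasi-likelihood fit of all 18 libraries, and a gene was called when its Benjamini-Hochberg adjusted p-value over the 14263 genes tested was under 0.05. Of 8 fibroblast markers, 7 were tested and none was called, and their summed level was 5261 to 5725 CPM in Mock and 5476 to 5761 CPM in AOA+Asp. The leukocyte markers Ptprc and Adgre1 and the muscle markers Myod1 and Myog were at 0 counts in both groups, no endothelial marker had enough counts to be tested, and the 1 tested epithelial marker was under 1 CPM in every library. The tested leukocyte markers, Cd14 and Cd68, were not called and summed to 121 to 135 CPM in Mock and 111 to 119 CPM in AOA+Asp. The muscle intermediate filament gene Des was called lower, with 18.8 to 19.2 CPM in Mock and 13.1 to 14.8 CPM in AOA+Asp. In RNA from whole cultures, fewer cells of a kind and less RNA per cell cannot be told apart.

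With AOA and aspartate, 360 genes rose (2.52% of those tested) and 563 fell (3.95%), 923 together (6.47%). The changes were modest. The median called rise was 0.40 and the median called fall −0.47 on the log2 scale, against 0.01 over all genes tested, and 72 of the called genes changed by 1 or more. The 3 treated libraries lay wholly above or wholly below the 3 Mock libraries in 4659 genes (32.7%), and this was so for 922 of the called genes. AOA alone against the same Mock libraries gave 3199 higher (22.4%) and 3317 lower genes (23.3%), and AOA+Asp against AOA alone gave 3345 higher (23.5%) and 3255 lower genes (22.8%). Over 9943 genes, the root mean square log2 difference between 2 libraries was 0.121 to 0.151 within Mock, 0.156 to 0.194 within AOA+Asp, 0.205 to 0.276 between Mock and AOA+Asp, and 0.447 to 0.479 between Mock and AOA. The AOA+Asp libraries were thus closer to Mock than any AOA library was, and still farther from Mock than the Mock libraries were from each other. The number of calls rested on the libraries and the scaling used. It was 359 without AOA+Asp replicate 1, 416 without Mock replicate 1, 441 without Mock replicate 2 and 570 without Mock replicate 3, and it was 2462 when the 6 libraries were fitted alone. Library totals in place of TMM gave 231 higher and 873 lower genes.

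Of the 360 genes that rose, 170 had also risen with AOA alone, 62 had fallen with it and 128 were not called in that comparison. Of the 563 that fell, 384 had also fallen with AOA alone, 47 had risen and 132 were not called. Both comparisons share the Mock libraries, so these counts sort the genes and lend neither comparison support.

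A trend with base composition ran through the changes. GC content, the share of G and C in a gene's longest GENCODE vM21 transcript, had a median of 43.9% in the genes that rose, 54.0% in those that fell and 49.3% in all genes tested, of which 97.5% had a value. The median log2 change was 0.19 over the 879 genes with a GC content of up to 40% and −0.14 over the 414 genes above 60%. Across genes, Spearman's rho between GC content and a library's deviation from the mean of all libraries was −0.52, −0.23 and −0.28 in the AOA+Asp libraries and −0.024 to −0.039 in the Mock libraries. When each library's trend on GC content and transcript length was removed, an alternative chosen after seeing the data, 765 genes rose and 827 fell, and these held 763 of the 923 calls (82.7%). The part of this trend in the results was not tested beyond that correction, and its counts are given beside the gene groups. Those counts stand beside 765 higher and 827 lower of 14263 genes in that fit. The fit reported had 360 and 563.

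**Figure D1:**
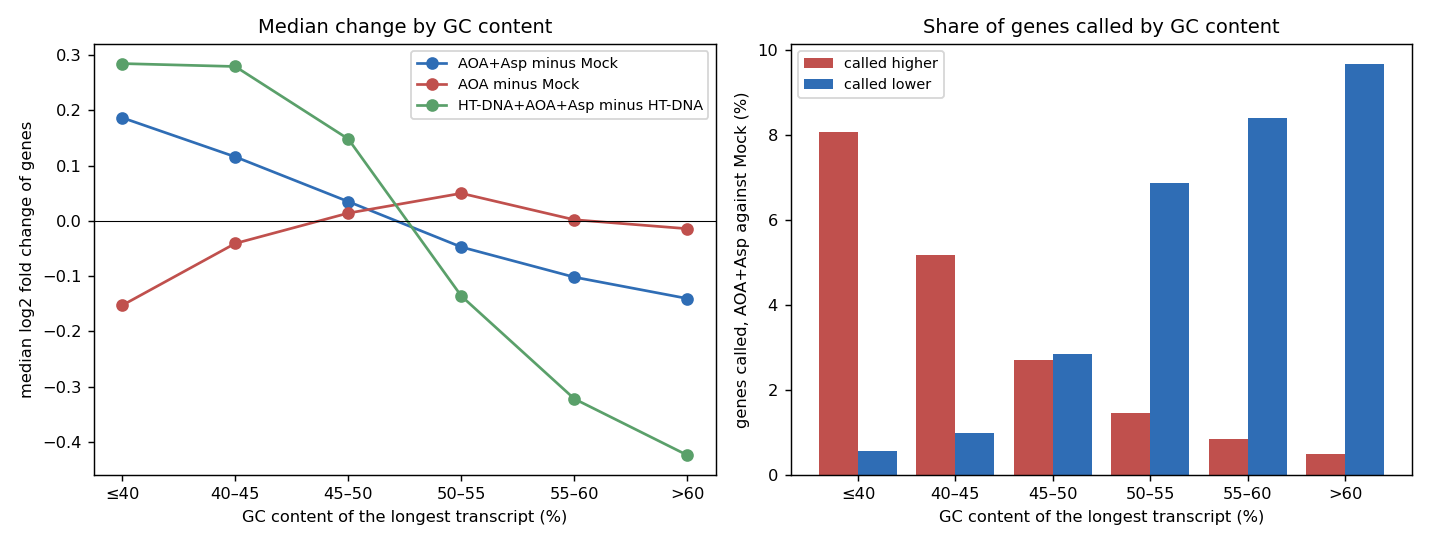
Left, median log2 fold change of the genes in 6 classes of GC content, for AOA+Asp against Mock, AOA against Mock and HT-DNA+AOA+Asp against HT-DNA. Right, the percentage of genes in each class called higher or lower in AOA+Asp against Mock. The AOA+Asp line falls from 0.19 to −0.14 and the line of the cells with HT-DNA from 0.28 to −0.42, and calls of higher genes are most frequent at low and calls of lower genes at high GC content.

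Sterol synthesis and uptake held the clearest change. Of 26 tested genes, 20 fell and none rose, beside 3.95% of all genes that fell, and the median log2 change was −0.69. The summed level was 2795 to 2828 CPM in Mock, 1601 to 1685 CPM in AOA+Asp and 1558 to 1581 CPM with AOA alone. Without any 1 of the 6 libraries, 19 or 20 members were lower. With the GC and length trend removed 20 were lower and 2 higher. The members not called were Insig2, Ebp, Scap, Ggps1, Tm7sf2 and Npc1l1, and 3 members had too few counts to be tested.

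Insig1, which retains SREBP in the endoplasmic reticulum and is itself an SREBP target, was at 184, 179.6 and 182 CPM in Mock and at 74.1, 74.8 and 79.96 CPM in AOA+Asp. All 3 treated libraries were below all Mock libraries, and the log2 change was −1.25 ± 0.07 (SE, adjusted p = 2.2e-09). With AOA alone it was lower still, at 33.3 to 37.8 CPM. Dhcr7, which reduces 7-dehydrocholesterol to cholesterol, was at 24.5, 24.6 and 26.6 CPM in Mock and at 9.52, 12.5 and 11.5 CPM in AOA+Asp (log2 −1.18 ± 0.10, adjusted p = 2.3e-07). With AOA alone it was at 6.00, 5.62 and 6.80 CPM, so that both genes lay between the AOA and the Mock level without touching either.

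In the synthesis chain, Hmgcs1, which makes HMG-CoA, was at 86.6, 85.2 and 87.7 CPM in Mock and at 49.6, 42.4 and 52.5 CPM in AOA+Asp (log2 −0.84 ± 0.11). Msmo1, a sterol C4-methyl oxidase, was at 94.7, 96.3 and 98.6 CPM in Mock and at 47.6, 46.2 and 45.5 CPM in AOA+Asp (log2 −1.06 ± 0.07). The groups overlapped for neither gene. Mvk, Pmvk, Mvd, Idi1, Fdps and Fdft1, which carry mevalonate on to squalene, fell by 0.61 to 0.93 on the log2 scale, and Sqle, Lss, Cyp51, Msmo1, Nsdhl, Hsd17b7, Sc5d and Dhcr7, which turn squalene into cholesterol, by 0.37 to 1.18. Srebf2, which encodes SREBP2 itself, was at 202, 206 and 200.1 CPM in Mock and at 125, 142 and 135 CPM in AOA+Asp (log2 −0.60 ± 0.07).

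In AOA+Asp against AOA the median log2 change of the 26 sterol genes was 0.34. Of these genes 13 rose and 6 fell, beside 23.5% and 22.8% of all genes, so the falls were near the share of all genes. Against Mock AOA alone had lowered 21 and raised 0, beside 23.3% and 22.4% of all genes. Lss, lanosterol synthase, was lower with aspartate than without. It was at 140.0, 139 and 134 CPM in Mock, 101, 95.8 and 96.4 CPM with AOA alone and 71.3, 73.1 and 72.3 CPM in AOA+Asp, 3 levels that did not overlap (AOA+Asp against AOA, log2 −0.43 ± 0.05, adjusted p = 3.1e-06).

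One of the fallen genes is shown with its promoter because it carries the best known SREBP binding word. The sterol regulatory element core CACCCCAC, searched on both strands, was found in the 250 bases before the start of Hmgcs1, 136 bases before it. The window is from RefSeq on GRCm38.p6 (chr13:119690101-119690350, plus strand), 5′ to 3′, with the core in capitals.
Hmgcs1: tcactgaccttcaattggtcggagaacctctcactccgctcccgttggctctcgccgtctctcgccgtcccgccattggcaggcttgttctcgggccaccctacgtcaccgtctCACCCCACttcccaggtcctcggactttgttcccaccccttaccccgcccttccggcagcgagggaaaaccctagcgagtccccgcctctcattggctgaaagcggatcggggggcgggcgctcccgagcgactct
Of 21 tested sterol genes with a window, 2 held these letters in any window, Hmgcs1 and Acat2 (9.52%), as did 805 of all 27025 genes (2.98%). Most of the genes that fell do not hold this exact word in their window, which says nothing about SREBP.

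Lipid genes that answer to LXR and SREBP1 were lower as well. Of 18 tested, 10 fell and none rose, beside 3.95% and 2.52% of all genes, with a median log2 change of −0.33. Scd2, a desaturase that makes oleate, was at 1492, 1429 and 1364 CPM in Mock and at 583, 576 and 650.1 CPM in AOA+Asp (log2 −1.24 ± 0.09), against 312, 301 and 305 CPM with AOA alone. Acss2, Srebf1, Scd1, Fasn and Elovl6 fell by 0.62 to 0.71, and Acacb, Fads1, Lpcat3 and Acly by 0.32 to 0.57. The cholesterol exporters Abca1 and Abcg1, known targets of LXR, were not called (log2 0.21 and 0.27). Without 1 library 9 or 10 members were lower, and with the GC and length trend removed 12.

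**Figure D2:**
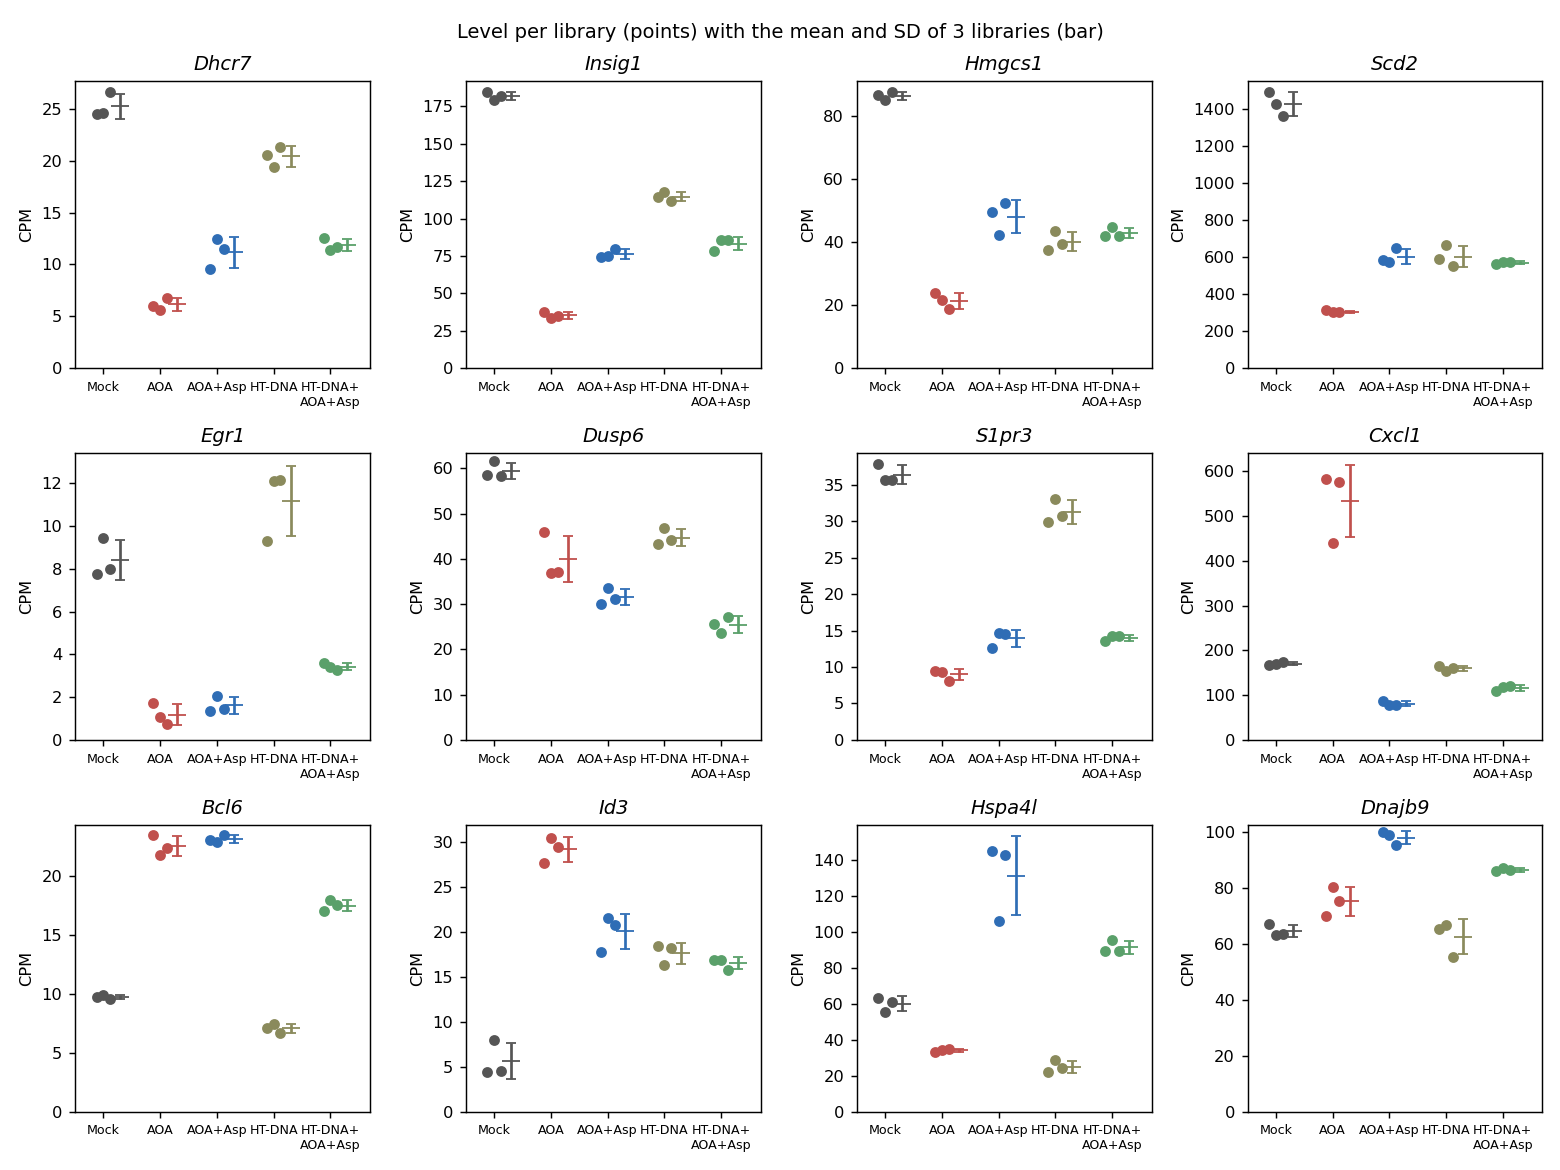
CPM of 12 genes in each library of Mock, AOA, AOA+Asp, HT-DNA and HT-DNA+AOA+Asp (points), with the mean and SD of the 3 libraries of a group (bars). In AOA+Asp, Dhcr7, Insig1, Hmgcs1 and Scd2 lie between the AOA and Mock levels, Bcl6 is at its AOA level, Cxcl1 is below Mock where AOA alone is above it, and Hspa4l is above Mock where AOA alone is below it.

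Genes downstream of growth factor signalling formed the second group. Of 20 tested targets and feedback genes of the ERK kinases, 16 fell and 1 rose, beside 3.95% and 2.52% of all genes. The median log2 change of these 20 was −0.54. Their summed level was 1090 to 1123 CPM in Mock, 749 to 826 CPM in AOA+Asp and 932 to 1064 CPM with AOA alone. AOA alone had lowered 10 and raised 4 of them, beside 23.3% and 22.4% of all genes. In AOA+Asp against AOA 12 fell and 4 rose, beside 22.8% and 23.5% of all genes. Dusp6, the phosphatase that switches ERK off, was at 58.5, 61.5 and 58.4 CPM in Mock and at 30.1, 33.5 and 31.1 CPM in AOA+Asp (log2 −0.91 ± 0.09, adjusted p = 1.7e-06). The groups did not overlap. With the GC and length trend removed, the log2 change of Dusp6 against Mock was −0.61 with AOA alone and −0.92 in AOA+Asp. Errfi1, an inhibitor of the EGF receptor, was at 130.5, 133 and 126 CPM in Mock and at 71.8, 76.4 and 66.3 CPM in AOA+Asp (log2 −0.86 ± 0.09), and at 133, 103 and 104 CPM with AOA alone, which was not called against Mock (adjusted p = 0.094). It was lower in AOA+Asp than in AOA (log2 −0.66 ± 0.09, adjusted p = 1.8e-05), and so was Phlda1 (log2 −0.78 ± 0.09). The pathway inhibitors Spry2, Spry4, Spred2 and Spred3 fell by 0.32 to 0.72, the ETS factors Etv4 and Etv5 by 0.39 to 0.72, and the phosphatases Dusp2, Dusp4, Dusp5 and Dusp7 by 0.41 to 0.84. Dusp1, which acts on several MAP kinases, was the member that rose (log2 0.55 ± 0.10). Without 1 library 11 to 15 members were lower, the lowest count being that without AOA+Asp replicate 1, and with the GC and length trend removed 16.

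Of 28 tested immediate early genes, which growth factors raise within minutes, 10 fell and 1 rose (median log2 −0.38), beside 3.95% and 2.52% of all genes. Egr1, a zinc finger transcription factor, had the largest fall among the genes named by rule, from 7.74, 9.46 and 8.02 CPM in Mock to 1.35, 2.06 and 1.43 CPM in AOA+Asp (log2 −2.38 ± 0.20, adjusted p = 3.6e-07). With AOA alone it was at 1.71, 1.07 and 0.756 CPM, which overlapped AOA+Asp. Junb, Ier2, Jun, Fosl1, Egr3, Btg2, Arc, Maff and Zfp36 fell by 0.46 to 1.34. Fosl2, a partner of Jun, rose, with 86.6 to 90.1 CPM in Mock and 107 to 128 CPM in AOA+Asp. Fos, Fosb and Atf3 were not called (log2 −0.90, −0.48 and −2.17). Without 1 library 7 to 9 were lower, and with the GC and length trend removed 9 were lower and 1 higher. Zfp36 was called in 0 of the 6 fits without 1 library. With that trend removed neither Zfp36 nor Fosl1 was called (log2 −0.38 and −0.40).

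Among 24 tested p53 targets, 10 fell and none rose, beside 3.95% and 2.52% of all genes, with a median of −0.17. AOA alone had raised 10 and lowered 7 of them, beside 22.4% and 23.3% of all genes. Cdkn1a, the cell cycle inhibitor p21, was at 73.7, 73.3 and 80.3 CPM in Mock and at 47.7, 51.7 and 52.1 CPM in AOA+Asp (log2 −0.58 ± 0.08). With the GC and length trend removed, its log2 change against Mock was −0.49 with AOA alone and −0.50 in AOA+Asp. Plk2, a stress kinase, was at 17.9, 19.5 and 15.8 CPM in Mock, 45.5, 31.2 and 35.4 CPM with AOA alone and 10.1, 10.2 and 9.90 CPM in AOA+Asp, so that the treated groups lay on opposite sides of Mock. Mdm2, Ccng1 and Bax, which are among the targets most often read for p53, were not called (log2 −0.07, −0.10 and 0.01). The count depended on single libraries, being 5 without Mock replicate 1, 6 without Mock replicate 2 and 5 without AOA+Asp replicate 1, and with the GC and length trend removed 11 fell and 2 rose.

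Some chemokine and cytokine genes that AOA alone raised were below Mock once aspartate was present. Cxcl1, a neutrophil chemokine, was at 167, 169.5 and 173 CPM in Mock, 583, 440.3 and 577 CPM with AOA alone and 86.9, 78.3 and 78.6 CPM in AOA+Asp. Its log2 change against Mock was 1.65 ± 0.09 with AOA alone and −1.07 ± 0.09 in AOA+Asp (adjusted p = 3.5e-07), and the 3 groups did not overlap. Cxcl2, a related chemokine, Lif, a cytokine of the IL-6 family, and Csf1, the macrophage growth factor, had the same order, with log2 changes of 2.89, 1.05 and 1.23 with AOA alone and −0.64, −0.88 and −0.41 in AOA+Asp. Csf1 was the most abundant of them, at 1421, 1485 and 1355 CPM in Mock and 1033, 1116 and 1049 CPM in AOA+Asp. Over all 27 tested NF-kB targets and chemokines, 5 fell and 1, the apoptosis inhibitor Birc2, rose, beside 3.95% and 2.52% of all genes. The median was −0.12. AOA alone had raised 20, beside 22.4% of all genes, and 4 of these were lower than in Mock in AOA+Asp. With the GC and length trend removed 8 fell and 2 rose, where 827 and 765 of 14263 genes did so in all. The NF-kB feedback inhibitors Nfkbia and Tnfaip3 were not called in AOA+Asp (log2 0.12 and 0.55).

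Interferon-stimulated genes were low without HT-DNA and mostly not called. Of 53 tested, 4 fell and none rose, beside 3.95% and 2.52% of all genes. The log2 change was below 0 in 47, and the median was −0.31 against 0.01 over all genes. The summed level was 867 to 883 CPM in Mock and 730.0 to 759 CPM in AOA+Asp. The members that fell were Oas2, Dhx58, Lgals3bp and Sting1. Sting1, the adaptor that signals downstream of cGAS, was at 11.8, 10.00 and 11.3 CPM in Mock and at 7.28, 7.54 and 8.09 CPM in AOA+Asp (log2 −0.53 ± 0.11), against 5.69, 5.54 and 5.87 CPM with AOA alone. Cgas itself was not called (log2 −0.40 ± 0.14, adjusted p = 0.098). With the GC and length trend removed the count was 11, where 827 of 14263 genes fell in all. In a fit of the 6 libraries alone it was 13 of 40 tested members, where 1196 of 13436 genes fell in all. It was 2 without Mock replicate 1, 2 without Mock replicate 3 and 2 without AOA+Asp replicate 1.

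Chaperones of the endoplasmic reticulum (ER) were the list with the most rises. Of 19 tested genes, 9 rose and none fell, beside 2.52% of all genes that rose, 18 were above 0 on the log2 scale, and the median was 0.23. The summed level was 16680 to 16820 CPM in Mock, 18830 to 19000 CPM with AOA alone and 20500 to 21270 CPM in AOA+Asp. AOA alone had raised 6 and lowered 2 of the 19, beside 22.4% and 23.3% of all genes. In AOA+Asp against AOA 8 rose and 0 fell, beside 23.5% and 22.8% of all genes. With the GC and length trend removed, the log2 change of Hspa5 against Mock was 0.47 with AOA alone and 0.41 in AOA+Asp. Hspa5, the main ER chaperone (BiP), was at 4053, 4027 and 4026 CPM in Mock and at 5545, 5407 and 5761 CPM in AOA+Asp (log2 0.47 ± 0.07, adjusted p = 1.7e-04), with no overlap. Dnajb9, a cochaperone of Hspa5, was at 66.99, 63.2 and 63.5 CPM in Mock and at 99.9, 98.7 and 95.2 CPM in AOA+Asp (log2 0.60 ± 0.07). Dnajc3, an inhibitor of the kinase PERK, was at 124, 118 and 131 CPM in Mock, 182, 163 and 179 CPM in AOA+Asp and 84.2, 79.5 and 89.1 CPM with AOA alone, so that it was above Mock in one group and below it in the other. Pdia3, Pdia4, Pdia6, Hyou1, Herpud1 and Hsp90b1, which fold proteins or, as Herpud1 does, help to remove them, rose by 0.21 to 0.42. Xbp1, the factor that drives many of these genes, was not called (log2 −0.07).

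The size of this group varied with the libraries and the correction. The number higher was 4 without Mock replicate 1, 4 without Mock replicate 2, 5 without Mock replicate 3, 5 without AOA+Asp replicate 1, 5 without AOA+Asp replicate 2 and 5 without AOA+Asp replicate 3. Hspa5, Dnajb9, Dnajc3 and Pdia4 were called in all 6 of those fits. With library totals in place of TMM 5 were higher. With the GC and length trend removed 16 were, with a median of 0.26, where 765 of 14263 genes rose in all.

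The ER stress element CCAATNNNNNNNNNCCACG is the word through which ATF6 and XBP1 are known to act with NF-Y. It was searched on both strands in the 250 bases before each start. The 4 genes that rose and held it are shown, 5′ to 3′ from RefSeq on GRCm38.p6, with the matched letters in capitals.
Hspa5: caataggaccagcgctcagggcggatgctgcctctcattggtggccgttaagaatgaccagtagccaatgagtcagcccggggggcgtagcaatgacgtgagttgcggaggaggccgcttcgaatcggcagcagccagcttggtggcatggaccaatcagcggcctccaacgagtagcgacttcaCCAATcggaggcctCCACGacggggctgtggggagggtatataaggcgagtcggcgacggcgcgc
Dnajc3: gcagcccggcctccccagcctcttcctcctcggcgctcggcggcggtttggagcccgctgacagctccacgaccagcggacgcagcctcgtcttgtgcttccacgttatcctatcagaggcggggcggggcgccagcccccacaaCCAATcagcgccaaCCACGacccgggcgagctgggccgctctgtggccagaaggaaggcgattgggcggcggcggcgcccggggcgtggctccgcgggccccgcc
Hsp90b1: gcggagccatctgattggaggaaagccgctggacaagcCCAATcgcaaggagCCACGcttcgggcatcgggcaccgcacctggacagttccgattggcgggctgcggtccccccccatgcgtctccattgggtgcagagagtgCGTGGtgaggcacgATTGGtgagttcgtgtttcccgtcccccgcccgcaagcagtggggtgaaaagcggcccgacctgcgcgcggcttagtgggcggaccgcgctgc
Pdia6: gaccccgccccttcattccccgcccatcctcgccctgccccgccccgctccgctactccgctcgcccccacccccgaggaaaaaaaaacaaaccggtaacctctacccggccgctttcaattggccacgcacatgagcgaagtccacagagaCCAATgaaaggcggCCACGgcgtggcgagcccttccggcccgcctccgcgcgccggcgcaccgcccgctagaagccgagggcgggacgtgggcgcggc
Hspa5 is at chr2:34771840-34772089, plus strand, Dnajc3 at chr14:118937682-118937931, plus strand, Hsp90b1 at chr10:86705445-86705694, minus strand, and Pdia6 at chr12:17266339-17266588, plus strand. The match lay 65 bases before the start in Hspa5, 105 in Dnajc3 and 98 in Pdia6, and Hsp90b1 held 2 matches, 1 on each strand. Among 17 tested members with a window 8 held the element (47.1%), as did 37 of all 32851 windows (0.113%). Of the 8 members with a window that rose 4 held it, and the other 4 that held it, Calr, Canx, Creld2 and Syvn1, were not called (log2 0.11, 0.27, 0.17 and 0.17).

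Of 16 tested cytosolic and mitochondrial heat shock genes, 4 rose and none fell, beside 2.52% and 3.95% of all genes. Hspa4l, a member of the Hsp110 family, was at 63.4, 55.5 and 61.1 CPM in Mock, 33.2, 34.6 and 34.6 CPM with AOA alone and 145, 106 and 142 CPM in AOA+Asp (log2 1.13 ± 0.16, adjusted p = 1.5e-04). AOA+Asp replicate 2 was the lowest of the treated libraries, and it was still above every Mock library. The rule that named Hspa4l among the largest rises required this, so it adds no support. Hsp90aa1, Hspd1 and Dnaja1 rose by 0.30 to 0.42, while the inducible genes Hspa1a and Hspa1b were not called (log2 0.12 and 0.33). With the GC and length trend removed, Dnaja1 was no longer called (log2 0.14). AOA alone had lowered 10 and raised 3 of the 16, beside 23.3% and 22.4% of all genes. The number higher was 1 without Mock replicate 1, 1 without Mock replicate 2 and 1 without AOA+Asp replicate 1, and 7 with the GC and length trend removed.

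Amino acid response genes were mostly near the Mock level. AOA alone raised 36 of 43 tested genes, beside 22.4% of all genes. In AOA+Asp 5 were higher and 1 lower, beside 2.52% and 3.95% of all genes, with a median of 0.04. The summed level was 9698 to 9953 CPM in Mock, 13770 to 14210 CPM with AOA alone and 10080 to 10530 CPM in AOA+Asp. Asns, which makes asparagine from aspartate, was at 404 to 407 CPM in Mock, 546 to 580.2 CPM with AOA alone and 415 to 417 CPM in AOA+Asp (log2 0.04 ± 0.06, adjusted p = 0.776). Chac1, which degrades glutathione, and Trib3, a pseudokinase that holds back ATF4, were not called (log2 0.03 ± 0.13 and 0.12 ± 0.10), although AOA alone had raised both (log2 1.91 and 1.17). With the GC and length trend removed, Trib3 was called higher than in Mock (log2 0.24, edgeR adjusted p = 0.0014) and Chac1 was not called (log2 0.13).

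Part of the stress response stayed above Mock. Ddit3, the stress factor CHOP, was at 47.02, 42.9 and 48.6 CPM in Mock, 348, 374 and 385 CPM with AOA alone and 101, 104 and 107 CPM in AOA+Asp (log2 1.17 ± 0.09). Gadd45a, a growth arrest gene outside the list, was at 21.7, 21.8 and 25.9 CPM in Mock, 176, 180.1 and 176 CPM with AOA alone and 47.6, 47.3 and 46.3 CPM in AOA+Asp (log2 1.03 ± 0.07). Both lay far below the AOA level and above Mock with no overlap, and for Mock this was required by the rule that named the largest rises. Cebpg, Nupr1, Ppp1r15a and Slc3a2 rose by 0.24 to 0.45. Gdf15, a secreted stress hormone, fell (log2 −0.58 ± 0.10) where AOA alone had raised it (log2 0.63 ± 0.10). The number of higher members was 3 without Mock replicate 1, 2 without Mock replicate 2, 3 without Mock replicate 3, 2 without AOA+Asp replicate 1 and 3 without AOA+Asp replicate 3. With the GC and length trend removed it was 13, where 765 of 14263 genes rose in all. The number above Mock thus rests on these choices.

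None of the 8 tested malate-aspartate shuttle genes was called by edgeR, 2 had an unadjusted p-value under 0.05, and DESeq2 called 1 lower. By edgeR 1 was lower with library totals, 1 with the GC and length trend removed and 2 in the 6 libraries fitted alone. Got1, the cytosolic aspartate aminotransferase, was at 131, 125 and 129 CPM in Mock, 177, 174 and 180.0 CPM with AOA alone and 112, 125 and 118 CPM in AOA+Asp (log2 −0.12 ± 0.07 against Mock). Got2, its mitochondrial counterpart, was at 342, 336 and 330.5 CPM in Mock, 445, 453 and 426 CPM with AOA alone and 324, 351 and 329 CPM in AOA+Asp (log2 −0.01 ± 0.07). The AOA+Asp and Mock libraries overlapped for Got2 and did not overlap for Got1, which nonetheless was not called.

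Among 15 tested genes of aspartate uptake and use, Slc1a5, a carrier of neutral amino acids, fell from 141, 135 and 135 CPM in Mock to 96.2, 108 and 99.3 CPM in AOA+Asp (log2 −0.43 ± 0.07). Dars, which loads aspartate onto its tRNA, and Adss, which uses aspartate in AMP synthesis, rose by 0.23 to 0.27. Without 1 library Dars was called in 1 of 6 fits and Adss in none, neither was called with library totals or with the replicate block, and with the GC and length trend removed Dars was not called (log2 0.08) and Adss was (log2 0.16). The aspartate carriers Slc1a3 and Slc1a6 were at 0 counts in both groups. Over these 15 genes 2 rose and 1 fell with that trend removed. Of 18 other pyridoxal phosphate enzymes, Alas1, the first enzyme of haem synthesis, rose from 30.2, 32.3 and 28.8 CPM to 42.6, 48.05 and 43.3 CPM (log2 0.55 ± 0.09), and Kyat3, a kynurenine aminotransferase, fell (log2 −0.42 ± 0.10), a call kept in 2 of the 6 fits without 1 library. With that trend removed 1 of these enzymes rose and 2 fell. Of 28 pyrimidine genes 5 fell, by 0.22 to 0.49, beside 3.95% of all genes. They were the nucleoside carrier Slc29a2, the salvage enzymes Upp1, Tk1 and Uck2 and the ribonucleotide reductase subunit Rrm2. Cad, Dhodh and Umps, the enzymes that build UMP from aspartate, were not called (log2 0.01, 0.03 and 0.06). The number of lower pyrimidine genes was 2 without Mock replicate 1, 1 without Mock replicate 2, 2 without Mock replicate 3, 1 without AOA+Asp replicate 1 and 2 without AOA+Asp replicate 3, and with the GC and length trend removed 8 fell and 1 rose.

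Most other groups held few calls, beside 2.52% of all genes that rose and 3.95% that fell. There were 0 higher and 2 lower of 46 DNA replication genes and 0 higher and 1 lower of 34 mitosis genes. AOA alone had lowered 28 and 19 of them, beside 23.3% of all genes. The counts were 0 higher and 2 lower of 33 for HIF targets and glycolysis, 0 higher and 1 lower of 25 for NRF2 targets, 1 higher and 1 lower of 20 for serine and one-carbon metabolism, 2 higher and 0 lower of 28 for lysosome and autophagy, 0 higher and 3 lower of 18 for the circadian clock, 0 higher and 4 lower of 23 for matrix and TGF-beta, and 2 higher and 1 lower of 16 for osmotic stress. With the GC and length trend removed, in the same order, the higher and lower counts were 2 and 5, 3 and 1, 2 and 2, 2 and 1, 3 and 1, 4 and 1, 2 and 3, 2 and 4, and 4 and 2. For polyamine and arginine metabolism no gene of 15 was called by edgeR, 3 had an unadjusted p-value under 0.05 and DESeq2 called 1 higher. By edgeR 1 was higher and 2 lower in the 6 libraries fitted alone, 2 lower with the GC and length trend removed and 1 with library totals. Tgfb1, the growth factor of the matrix list, fell in AOA+Asp (log2 −0.65 ± 0.10) and was not called with AOA alone (log2 −0.05 ± 0.10), and it differed between these treated groups (log2 −0.60 ± 0.10, adjusted p = 6.3e-05). Of 13 mitochondrially encoded mRNAs 4 rose, mt-Cytb most clearly (log2 0.43 ± 0.07), beside a share of counts on the mitochondrial genome of 2.79 to 3.04% in Mock and 3.35 to 3.57% in AOA+Asp. The number higher was 2 without Mock replicate 1, 2 without Mock replicate 2, 2 without Mock replicate 3, 2 without AOA+Asp replicate 1 and 2 without AOA+Asp replicate 2. With the GC and length trend removed 2 were higher and 1 lower.

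**Figure D3:**
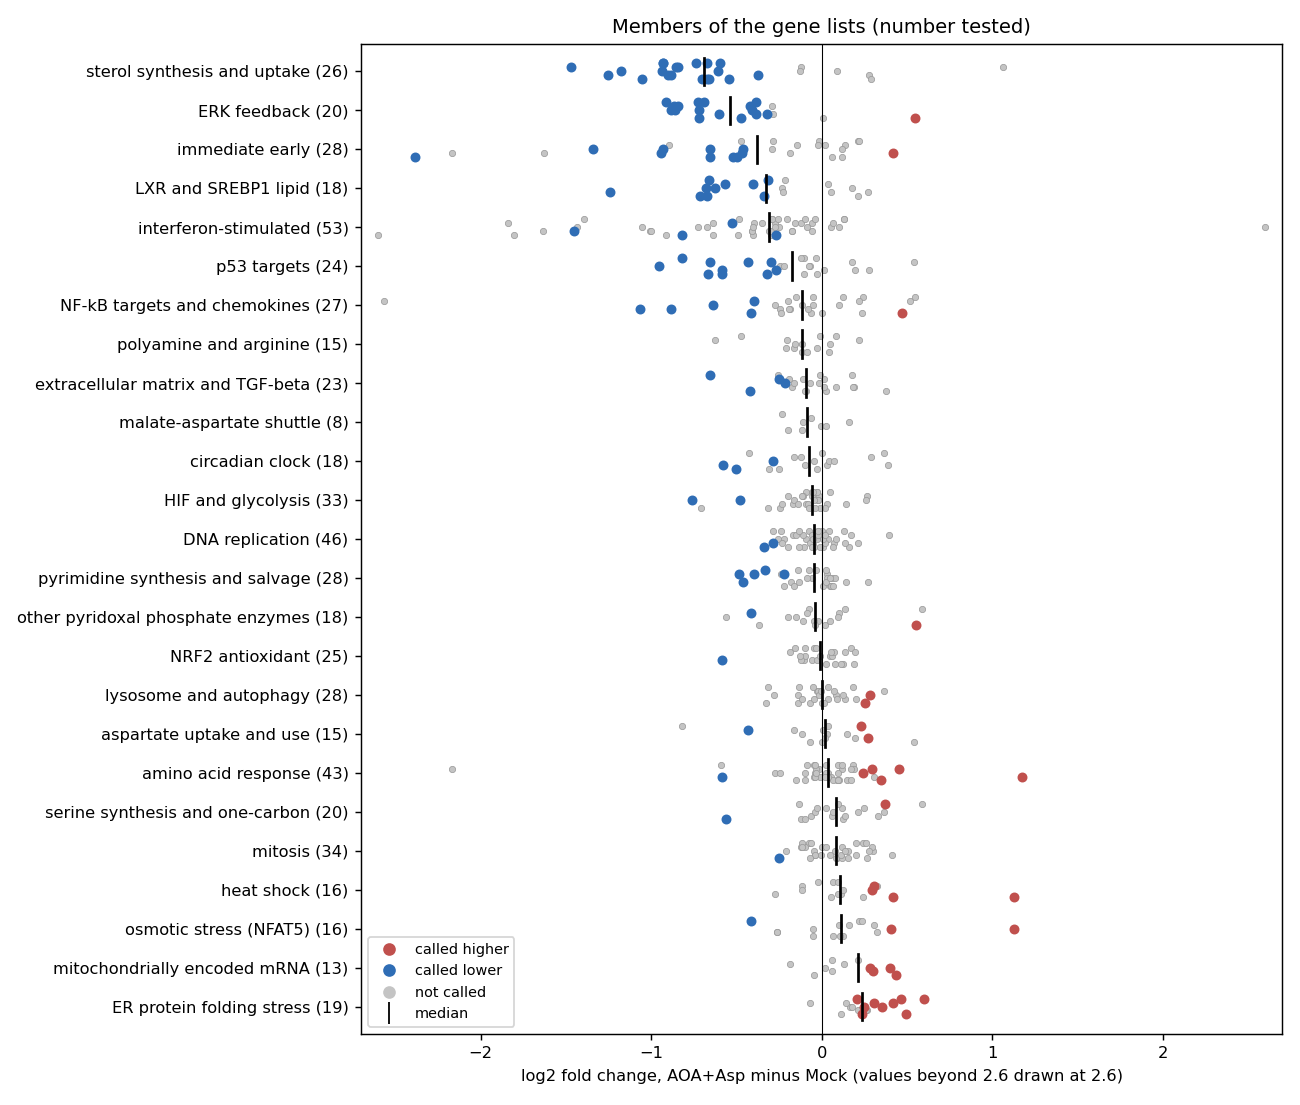
Log2 fold change in AOA+Asp against Mock of every tested member of 25 gene lists, with members called higher or lower in colour, the others in grey and the median of each list as a bar; values beyond 2.6 are drawn at 2.6. The sterol, ERK, immediate early, LXR and p53 lists hold 10 or more lower calls each, and the ER folding list has the highest median, 0.23.

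The 12 largest rises and 12 largest falls whose higher group averaged 1 CPM or more were led by genes with moderate counts and by several near the lower limit. Id3, an inhibitor of helix-loop-helix factors, was at 4.40, 7.98 and 4.51 CPM in Mock and at 17.8, 21.6 and 20.8 CPM in AOA+Asp (log2 1.83 ± 0.17, adjusted p = 1.3e-06), with 27.7, 30.4 and 29.5 CPM with AOA alone. Bcl6, a transcriptional repressor, was at 9.69, 9.87 and 9.59 CPM in Mock, 23.4, 21.8 and 22.3 CPM with AOA alone and 23.00, 22.9 and 23.5 CPM in AOA+Asp. The treated groups overlapped and both were above Mock (AOA+Asp against Mock, log2 1.25 ± 0.08). Fhl2, a LIM domain cofactor, also rose to about its AOA level, from 6.05, 4.82 and 4.84 CPM in Mock to 18.7, 15.7 and 14.1 CPM (log2 1.62 ± 0.12). Lgr6, a receptor for R-spondins, rose from 28.9, 29.2 and 27.6 CPM in Mock to 53.8, 57.7 and 63.5 CPM in AOA+Asp (log2 1.03 ± 0.07), with 35.03, 36.8 and 32.1 CPM with AOA alone.

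Among the falls, S1pr3, a receptor for sphingosine 1-phosphate, was at 37.9, 35.6 and 35.6 CPM in Mock and at 12.6, 14.7 and 14.5 CPM in AOA+Asp (log2 −1.38 ± 0.09), with 9.52, 9.27 and 8.14 CPM with AOA alone. Cish, a feedback inhibitor of STAT5 signalling, fell from 4.87, 3.60 and 4.89 CPM to 1.12, 1.61 and 1.47 CPM (log2 −1.66 ± 0.21). Tgm1, a transglutaminase, fell by 1.53 and Sgk2, a kinase, by 1.47. Sema6d, a semaphorin, was at 5.21, 5.99 and 5.70 CPM in Mock and at 1.87, 2.74 and 1.85 CPM in AOA+Asp (log2 −1.39 ± 0.27), and was not called with AOA alone. Dnmt3l, a cofactor of DNA methyltransferases near 1 CPM, had a log2 change of −1.93 ± 0.39. The genes AA474408, Naaladl1 and Epha8 lost their call in each of the 6 fits without 1 library, Dnai7 kept it only without AOA+Asp replicate 2, Cx3cr1 only without Mock replicate 2, Ccdc194 only without AOA+Asp replicate 3, and Col23a1 only without Mock replicate 3 or AOA+Asp replicate 2. These 7 genes stayed at or under about 2 CPM in all 6 libraries. The remaining rises were Zfp708, Zbed5, Ddit3, Gadd45a and Hspa4l, and Egr1 was among the falls.

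**Figure D4:**
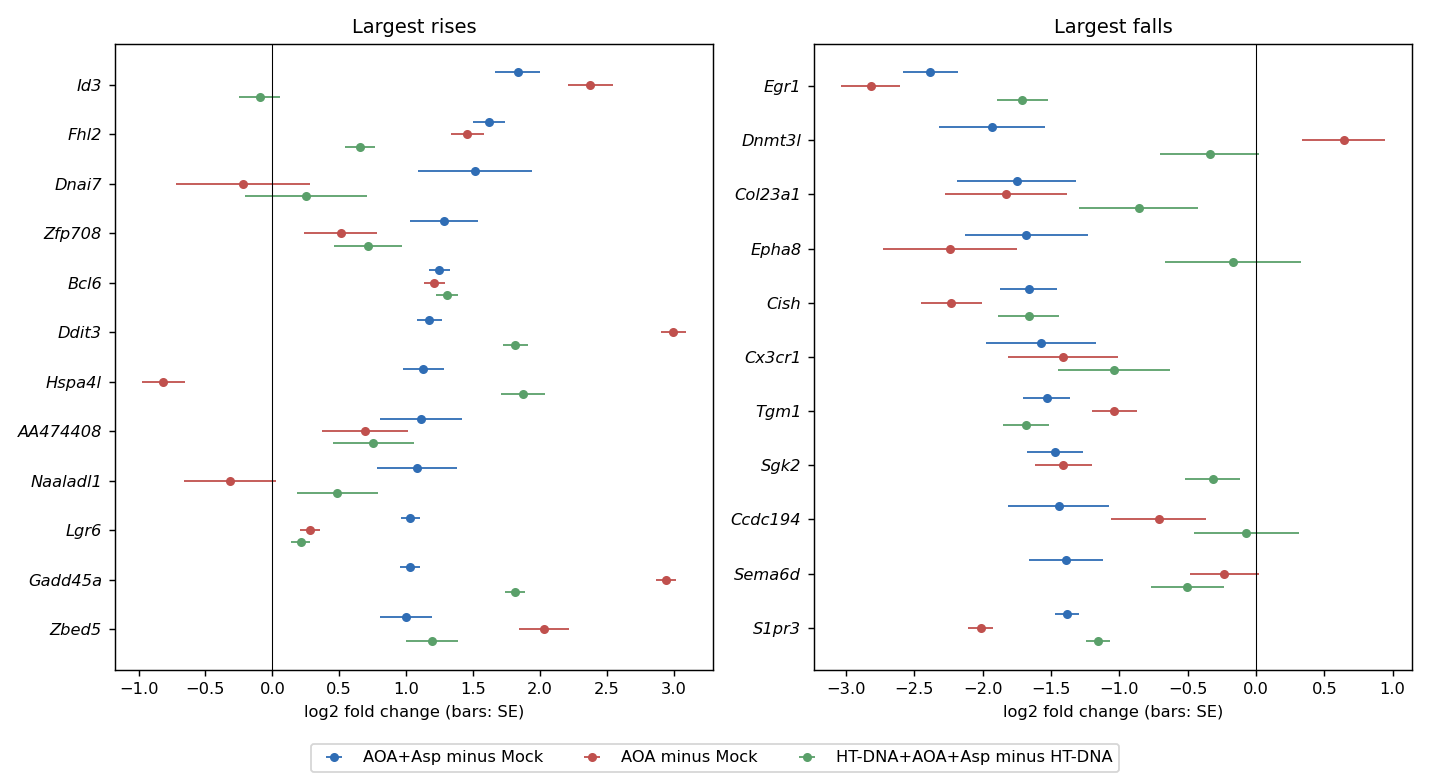
Log2 fold changes (points) with SE (bars) of the largest rises and falls in AOA+Asp against Mock that are named, with the change of the same genes in AOA against Mock and in HT-DNA+AOA+Asp against HT-DNA. Bcl6 and S1pr3 lie on the same side of 0 in all 3 comparisons, Hspa4l is above 0 with aspartate and below it with AOA alone, and Id3 is near 0 in the cells with HT-DNA.

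The cells given HT-DNA offer a second look at AOA and aspartate in libraries whose levels do not enter the Mock fold changes. They were in the same fit, so its filter and its estimate of the spread between replicates, on which the calls rest, also used them. HT-DNA+AOA+Asp against HT-DNA alone gave 3303 higher (23.2%) and 3346 lower genes (23.5%). Of the 360 genes that rose without HT-DNA, 227 rose there too (63.1%) and 7 fell, with a median log2 change of 0.34. Of the 563 that fell, 394 fell there too (70.0%) and 13 rose, with a median of −0.44. These libraries show a GC trend in the same direction, with Spearman's rho over genes of 0.39 to 0.51 in the HT-DNA libraries and −0.24 to −0.44 in the HT-DNA+AOA+Asp libraries. With the GC and length trend removed, 467 of 765 higher genes rose in the cells with HT-DNA (61.0%), beside 19.1% of all genes, and 472 of 827 lower genes fell there (57.1%), beside 18.01% of all genes. The effect with and without HT-DNA differed by its own test in 891 genes (6.25%), which included 39 of the genes that rose (10.8%) and 85 of those that fell (15.1%).

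Of the ERK list 15 fell and 2 rose with HT-DNA present, beside 23.5% and 23.2% of all genes. Of the 16 that fell without it, 14 fell there too and 1 rose. Of all 563 genes that fell without it, 394 fell there too (70.0%) and 13 rose. The difference of the effects was called above 0 in 2 and below 0 in 2 of the list, beside 6.25% of all genes in either direction. Of the ER list 11 rose and 4 fell with HT-DNA present, beside 23.2% and 23.5% of all genes. Of the 9 that rose without it, 8 rose there too, beside 227 of all 360 genes that rose without it (63.1%). The members that fell there, at about the share of all genes, were Creld2, Manf, Sdf2l1 and Xbp1. The difference was called below 0 in 2. Dusp6 was at 43.2, 46.8 and 44.2 CPM in HT-DNA and at 25.7, 23.6 and 27.2 CPM in HT-DNA+AOA+Asp (log2 −0.81 ± 0.09). Bcl6 was at 7.08, 7.44 and 6.68 CPM and 16.97, 17.9 and 17.5 CPM (log2 1.30 ± 0.08), and the difference of its effects was 0.05 ± 0.11. Neither gene overlapped between its groups.

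The sterol genes differed. Of 26 members 17 fell and 3 rose with HT-DNA present, beside 23.5% and 23.2% of all genes. The difference of the effects was called above 0 in 12 and below 0 in 0, beside 6.25% of all genes in either direction. Hmgcs1 was at 37.6, 43.5 and 39.4 CPM in HT-DNA and at 42.03, 44.8 and 41.9 CPM in HT-DNA+AOA+Asp (log2 0.10 ± 0.12), which overlap, and the difference of its effects was 0.94 ± 0.16 (adjusted p = 0.0049). The HT-DNA libraries started below the Mock libraries, and the levels with AOA and aspartate were near each other, 42.4 to 52.5 CPM without HT-DNA and 41.9 to 44.8 CPM with it. Dhcr7 fell in both settings, to 12.5, 11.3 and 11.7 CPM from 20.5, 19.4 and 21.4 CPM with HT-DNA (log2 −0.78 ± 0.10). In the amino acid response 24 of 43 genes rose with HT-DNA present, beside 23.2% of all genes, where 5 had risen without it, beside 2.52% of all genes, and the difference of the effects was called above 0 in 15. Chac1 was at 9.20, 8.48 and 9.39 CPM in HT-DNA and at 16.2, 16.3 and 13.7 CPM in HT-DNA+AOA+Asp (log2 0.77 ± 0.13), and the difference of its effects was 0.74 ± 0.18 (adjusted p = 0.029).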

How the data were processed

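RNA was sequenced from 18 libraries of L929 cells, 3 in each of 6 groups taken from the labels. The deposited table holds estimated counts that the authors made per gene (57180 genes, 11.56% of values not whole), and these were rounded before testing. The aligner, counting tool and genome build are not given in the sources used here. The authors' group means beside the counts were only checked against them.

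Genes were kept by edgeR's filter (minimum count 10, total 15), which left 14263. edgeR 4.0.16 in R 4.3.3 fitted all 18 libraries with TMM scaling and robust quasi-likelihood dispersion (12 residual degrees of freedom), and p-values were adjusted by Benjamini-Hochberg. P-values measure the spread between cultures of 1 cell line. Named genes were the 12 largest rises and 12 largest falls among called genes whose groups did not overlap and whose higher group averaged 1 CPM or more, and the members of 30 gene lists, 5 of them cell type markers. The members and lists were chosen with earlier results of these data known. The list symbols Aldoa and Ddit3 were carried by more than 1 tested gene ID. For each the ID with the most counts was used, and the other is not described. Asns, Chac1, Trib3, Got1 and Got2 are named although they were not called. On simulated data for AOA+Asp against Mock with 14103 genes, 50.8% of genes changed by 0.5, 68.2% of those changed by 1 and 97.0% of those changed by 2 on the log2 scale were recovered, and 5.30% of calls were unchanged genes. The simulated libraries held no GC trend, so these rates do not cover an error from that trend. Same-numbered replicates of Mock and AOA+Asp did not deviate together (correlations 0.013, −0.053 and −0.264), so no block was used. Alternatives were DESeq2 1.42.0, other scalings, filters and library sets, and a correction for GC content and length added after seeing the data. Results of some single genes are not reported here, although list counts include them.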

Additional observations from a re-analysis of the deposited data

Results flagged for a closer look

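For 37 genes, the effect of AOA and aspartate differed between cells with and without HT-DNA by the interaction term of the edgeR fit (adjusted p under 0.05). They come from the largest changes, the list members called in AOA+Asp against Mock and 5 further genes named in the report (Asns, Chac1, Got1, Got2 and Trib3), so list members not called there are not listed here. The values are the log2 effect with HT-DNA minus the log2 effect without it. In sterol synthesis they were Fdft1 0.42, Cyp51 0.45, Idi1 0.47, Sc5d 0.50, Nsdhl 0.53, Sqle 0.56, Lss 0.57, Msmo1 0.77, Insig1 0.79 and Hmgcs1 0.94. In the LXR and SREBP1 list they were Fads1 0.36, Acly 0.37, Acss2 0.47, Scd1 0.60, Elovl6 0.83 and Scd2 1.17.

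In the amino acid response, with Gadd45a, the values were Ppp1r15a 0.47, Cebpg 0.50, Trib3 0.57, Ddit3 0.64, Chac1 0.74, Gdf15 0.77 and Gadd45a 0.78. Among cytokines, growth factor genes and p53 targets they were Phlda3 −0.56, Junb −0.55, Plaur −0.43, Dusp4 0.58, Cxcl1 0.61, Plk2 0.80 and Cxcl2 0.89. The remaining genes gave Id3 −1.93, Fhl2 −0.96, Lgr6 −0.82, Slc29a2 −0.68, Gabarapl1 −0.45, Thbs2 0.77 and Sgk2 1.15. Id3 was at 16.3 to 18.4 CPM in HT-DNA and 4.40 to 7.98 CPM in Mock, and it was not called in HT-DNA+AOA+Asp against HT-DNA. With the GC and length trend removed the difference was no longer called in 7 of the 37, Slc29a2 (−0.38, adjusted p = 0.065), Phlda3 (−0.10, adjusted p = 0.468), Junb (−0.12, adjusted p = 0.611), Gabarapl1 (−0.24, adjusted p = 0.065), Plaur (−0.22, adjusted p = 0.132), Cyp51 (0.26, adjusted p = 0.088) and Lss (0.30, adjusted p = 0.095). The part of the differing starting levels in these values was not tested.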

How the results depend on the processing

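In AOA+Asp against Mock, 923 genes were called. Only 72 of them changed by 1 or more on the log2 scale. The 6 libraries fitted alone called 2462 genes (1266 higher, 1196 lower), with 915 of the 923 among them. Library totals gave 231 higher and 873 lower genes, DESeq2 554 higher and 716 lower, no filter on low counts 535 higher and 549 lower, and removal of the GC and length trend, chosen after seeing the data, 1592 calls with 765 higher and 827 lower. The cause of these shifts was not tested. Without 1 library, 359 to 724 genes were called, 104 to 257 higher and 255 to 467 lower, and 359 were left without AOA+Asp replicate 1. With RLE scaling 920 and with at least 10 counts in every library 1001 were called. The difference of the effects with and without HT-DNA was called in 891 genes, 1641 with DESeq2 and 1451 with the GC and length correction.

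Of the genes whose sign changed only mt-Nd6 was called in the fit reported. Asns was at −0.0092 and Chac1 at −0.020 with library totals, Chac1 ran from −0.073 to 0.1195 over the fits without 1 library, mt-Nd6 at −0.0060 and Got2 at 0.081 with the GC and length correction, and Got2 ran from −0.043 to 0.015 over the fits without 1 library.

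With the replicate number as a block, 936 genes were called (371 higher, 565 lower), 865 of them shared with the fit without it. Same-numbered samples share only a number here. With 3 libraries a group, small changes of genes with few counts can be missed.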
